A study of Mus musculus with 6 samples.

Results

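The genes described here are 9 members of 2 families, the interferon regulatory factors Irf1, Irf2, Irf4, Irf5, Irf8 and Irf9 (6 IRF genes) and the corepressors Irf2bp1, Irf2bp2 and Irf2bpl (3 Irf2bp genes). They were picked by their symbols from the 54532 genes listed for the series, each symbol matched 1 gene, and all 9 were among the 12755 genes tested. RNA-seq was performed on primary bone-marrow-derived macrophages (BMDMs) of wildtype C57BL/6 mice, grown in medium conditioned by L929 cells and seeded in duplicate. The 3 groups of 2 libraries were untreated BMDMs, BMDMs stimulated with LPS (100 ng/ml) for 2 h, and BMDMs pretreated with metformin (5 mM) for 6 h and then given the same LPS stimulation (Met + LPS), so metformin without LPS was not among the groups. Because the cells were seeded in duplicate and no source gives separate mice, the p-values measure the spread between libraries, which may be technical. Transcript levels are given in TPM, reads per gene length scaled to the same total in each library, with a depth of 25457016 to 30762754 reads per library as recovered from these values.

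IRF proteins share a helix-turn-helix DNA-binding domain with conserved tryptophans that recognises GAAA repeats, the core of the interferon-stimulated response element (ISRE). In macrophages, LPS acts through TLR4 on adaptors that activate NF-κB and IRF proteins, and the type I interferon made in response acts back on the cell through a complex that contains Irf9. The Irf2bp proteins carry an N-terminal zinc finger and a C-terminal RING domain, and the founding members were found as corepressors that bind the repressor Irf2.

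The promoters of the 3 genes that passed the cut-offs given below in at least 1 comparison, and that of Irf2, are shown because their letters can be read beside the levels. Each sequence holds the 250 bases before a RefSeq start site (build GRCm38.p6), written 5′ to 3′ on the strand of the gene. Capitals mark matches to any of 5 motifs searched on both strands, namely the ISRE-like motif (GAAA, any 2 bases, GAAA), the gamma-activated site (GAS) TTCNNNGAA, the κB-like motif (GGGA, any 2 bases, TTCC), the AP-1-like TGANTCA and the NF-κB consensus, the last of which was added after the Irf1 promoter had been read.
Irf1, chr11:53769764-53770013, plus strand: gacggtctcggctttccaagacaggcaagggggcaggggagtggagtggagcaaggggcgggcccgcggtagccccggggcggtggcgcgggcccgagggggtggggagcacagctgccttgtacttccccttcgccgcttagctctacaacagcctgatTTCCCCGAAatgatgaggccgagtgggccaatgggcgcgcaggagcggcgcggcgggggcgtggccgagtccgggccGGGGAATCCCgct
Irf8, chr8:120736108-120736357, plus strand: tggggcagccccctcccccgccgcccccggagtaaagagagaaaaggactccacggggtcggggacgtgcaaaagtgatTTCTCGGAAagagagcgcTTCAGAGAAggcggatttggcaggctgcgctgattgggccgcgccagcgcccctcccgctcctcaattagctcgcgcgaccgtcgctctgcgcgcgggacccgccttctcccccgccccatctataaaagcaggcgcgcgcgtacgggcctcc
Irf2, chr8:46739495-46739744, plus strand: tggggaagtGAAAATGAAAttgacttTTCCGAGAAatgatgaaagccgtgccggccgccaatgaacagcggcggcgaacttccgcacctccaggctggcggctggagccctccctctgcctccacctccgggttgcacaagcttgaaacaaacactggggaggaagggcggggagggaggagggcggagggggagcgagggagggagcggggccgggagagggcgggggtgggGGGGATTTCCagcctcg
Irf2bp2, chr8:126593987-126594236, minus strand: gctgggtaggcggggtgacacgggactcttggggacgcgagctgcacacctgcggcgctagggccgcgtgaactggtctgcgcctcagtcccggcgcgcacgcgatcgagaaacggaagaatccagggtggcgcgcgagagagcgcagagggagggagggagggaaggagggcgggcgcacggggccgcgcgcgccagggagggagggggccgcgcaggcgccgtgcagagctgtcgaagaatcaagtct

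The Irf1 promoter held a GAS (TTCCCCGAA) at position -90 and a match to the NF-κB consensus (GGGGAATCCC) at position -13, counting to the first base of the match back from the start site. In the Irf8 promoter there were 2 GAS motifs (TTCTCGGAA and TTCAGAGAA), at positions -171 and -153. Irf2 had an ISRE-like motif (GAAAATGAAA) at -241, a GAS (TTCCGAGAA) at -224 and a match to the NF-κB consensus (GGGGATTTCC) at -17. Among the 12 windows of the 9 members, the only other match was a GAS (TTCCCAGAA) at -59 in Irf2bp1, and the window of Irf2bp2 held none of the 5 motifs. Irf1 and Irf8 each had a further window at another start site (chr11:53770223-53770472 and chr8:120738389-120738638). These windows are not shown and held none of the 5 motifs. Of all 32851 promoter windows of this length, 7.02% held a GAS, 3.9% the NF-κB consensus, 2.98% the ISRE-like motif, 6.75% the AP-1-like motif and 1.21% the κB-like motif. No motif in these data was tested for binding.

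In untreated BMDMs, Irf5, a factor best known for driving inflammatory cytokine genes downstream of TLR adaptors, had the highest level of the 9 genes. Its TPM were 344 and 355 (349 ± 7.76, SD, n = 2). Irf8, which partners with PU.1 in myeloid development, followed at 96.0 ± 2.20 TPM, and Irf2bp2 was next at 68.3 ± 1.33 TPM (SD, n = 2 each). Irf9, Irf2bpl, Irf2bp1, Irf1 and Irf2 came in this order with mean levels of 46.5, 39.98, 37.3, 37.1 and 22.1 TPM. Irf2bp1 and Irf1 were neighbours whose untreated libraries overlapped, whereas all other neighbours in this order were separated in both libraries. Irf4, which is prominent in B cells, dendritic cells and alternatively activated macrophages, was lowest at 3.46 and 3.47 TPM, between the 20.6 and 20.7 percentile of the tested genes. Irf5 lay between the 97.0 and 97.1 percentile of the same genes.

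**Figure D1:**
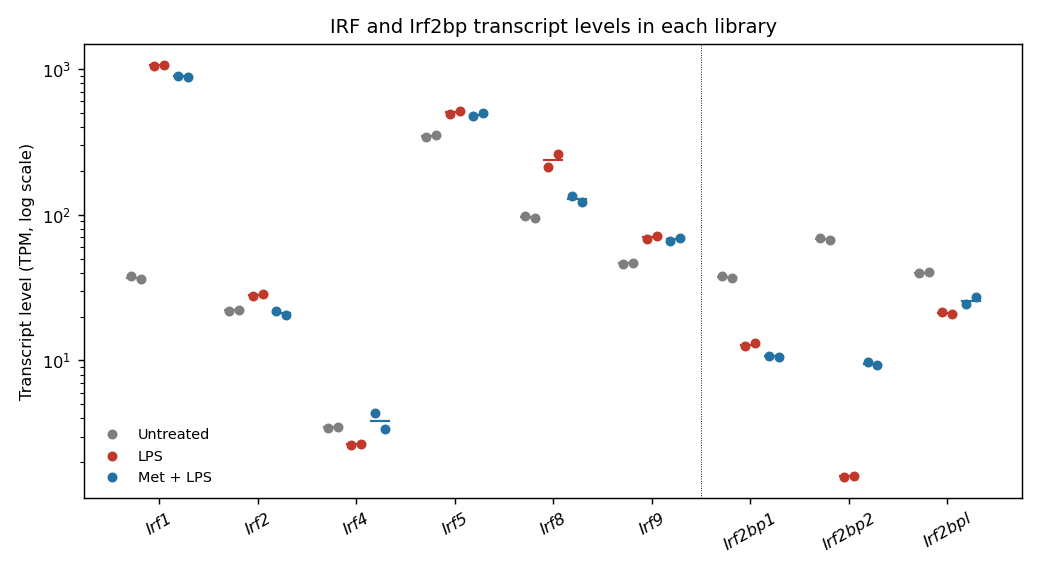
Transcript levels of the 9 genes in each of the 6 libraries, in TPM on a log axis. Dots are libraries, short lines are group means, and the dotted line divides IRF from Irf2bp genes; Irf1 climbs from 37.1 to 1063 TPM after LPS, and Irf2bp2 drops from 68.3 to 1.598 TPM and stands at 9.51 TPM in Met + LPS.

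The comparison of LPS with untreated BMDMs asks how these regulators respond within 2 h of stimulation. Irf1, an activator of antiviral and antigen-processing genes, rose 28.7-fold, and Irf2bp2 fell to 2.34% of its untreated level, while the changes of the other members were smaller. A gene was called if its log2 fold change (log2FC), up or down, reached 2 with a limma adjusted p-value below 0.01, both computed on log2(TPM + 1). By this rule 2 of the 9 genes were called (background 6.08% of the 12755 tested genes), 1 higher (background 3.72%) and 1 lower (background 2.37%). The untreated and LPS libraries were separated for all 9, as they were for 91.6% of tested genes. At an adjusted p-value under 0.01 whatever the fold, 8 of the 9 differed, where the background is 76.3%, so that this count says little about the members. Among the 9 members the directions were split by family, while Irf3, an IRF gene outside the 9, was lower, as given below. The 5 IRF genes that passed were higher (background for higher, 16.2%), and the 3 Irf2bp genes were lower (background for lower, 60.1%). Log2FC values of this comparison are to be read against a median of -0.48 over all tested genes, which is -0.01 after the libraries are rescaled by the median ratio over genes. The median was 0.55 over the 6 IRF genes and -1.47 over the 3 Irf2bp genes.

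Irf1 was at 38.2 and 36.0 TPM in the untreated libraries and at 1054 and 1073 TPM in the LPS libraries. The groups were far apart, with log2FC 4.81 ± 0.04 (SE; limma adjusted p = 1.7e-09). With this rise Irf1 moved from the seventh place of the 9 genes to the first, above Irf5, and into the 99.1 percentile of the tested genes. By the size of the increase Irf1 ranked 78 among the tested genes. Irf2, which binds the same sites and mostly represses, was at 21.9 and 22.3 TPM untreated and at 27.5 and 28.5 TPM after LPS. Its libraries did not overlap, and the log2FC was 0.33 in TPM as deposited (95% interval 0.21 to 0.45, limma adjusted p = 7.8e-04). After median-ratio scaling the log2FC of Irf2 was 0.83. The ratio of Irf1 to Irf2 in TPM accordingly went from 1.75 and 1.61 in the untreated libraries to 38.2 and 37.6 in the LPS libraries.

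Irf8 stood at 97.6 and 94.4 TPM untreated and at 211 and 261 TPM after LPS. The LPS libraries were both above the untreated ones and differed more from each other than those of the other members, with an SD of 34.8 TPM. Its log2FC of 1.28 ± 0.10 (SE; limma adjusted p = 2.3e-05) stayed below the cut-off of 2 and ranged from 1.13 to 1.43 on leaving out single libraries. Irf5 increased from 349 ± 7.76 to 505 ± 15.8 TPM (SD, n = 2 each), a log2FC of 0.53 (limma adjusted p = 2.2e-05). Irf9, the DNA-binding subunit of ISGF3, the complex that type I interferon activates, was at 46.1 and 46.9 TPM untreated and at 68.7 and 71.2 TPM after LPS. This rise had a log2FC of 0.58 (limma adjusted p = 2.1e-05). After median-ratio scaling the log2FC values were larger, at 1.80 for Irf8, 1.06 for Irf5 and 1.09 for Irf9.

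Irf4 was the member without a call by p-value. It was at 2.63 and 2.68 TPM after LPS, below both untreated libraries, with a log2FC of -0.29 (95% interval -0.57 to -0.01, limma adjusted p = 0.0537). The sign rests on the scaling, since median-ratio scaling gave 0.10 (limma adjusted p = 0.459). Between 96 and 161 reads per library lie behind its values.

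All 3 corepressor transcripts fell, and they did so to different extents. Irf2bp2 dropped from 69.3 and 67.4 TPM to 1.58 and 1.62 TPM, log2FC -4.74 ± 0.06 (SE; limma adjusted p = 8.2e-09). It ranked 5 by the size of the decrease among the tested genes and changed from the third to the last place among the 9 genes. The fold is understated by the pseudocount at this level, and limma voom on the recovered reads, 61 and 60 in the LPS libraries, gave -5.39. Irf2bp1 went from 38.0 and 36.6 TPM to 12.6 and 13.1 TPM, a log2FC of -1.47 (limma adjusted p = 8.3e-07). Irf2bpl went from 39.6 and 40.4 TPM to 21.5 and 20.7 TPM, a log2FC of -0.89 (limma adjusted p = 1.7e-05). Against the median of all genes the decrease of Irf2bpl is small, at -0.38 after median-ratio scaling (limma adjusted p = 0.0015), while those of Irf2bp1 and Irf2bp2 were -0.96 and -4.28 on that scale.

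**Figure D2:**
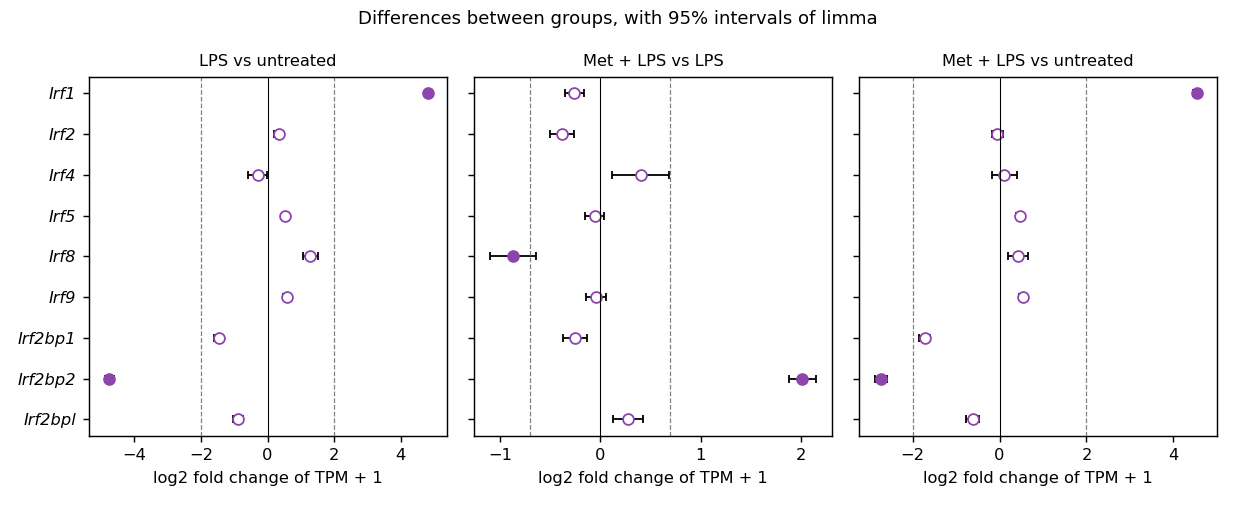
Log2FC values of the 9 genes on the log2(TPM + 1) scale in 3 comparisons, with 95% intervals of limma; filled circles passed both cut-offs and dashed lines mark the fold cut-off (2, 0.7 and 2). Irf1 and Irf2bp2 stand out after LPS, at 4.81 and -4.74, and between Met + LPS and LPS the filled circles are Irf8 at -0.87 and Irf2bp2 at 2.02.

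The comparison of Met + LPS with LPS asks how metformin pretreatment alters this response, and it shares the LPS libraries with the comparison above. Irf2bp2 was 5.95-fold higher and Irf8 was at 0.544 times its level in LPS. The fold cut-off here was 0.7, and these 2 of the 9 genes were called (background 8.28%), 1 higher (background 4.19%) and 1 lower (background 4.09%). For 7 of the 9 the libraries of LPS and Met + LPS did not overlap (background 73.8%). By the p-value alone 5 of the 9 differed (background 32.6%), 1 higher (background 14.5%) and 4 lower (background 18%). With voom 6 passed, 3 higher and 3 lower, so this split depends on the fit. The median log2FC of the 9 genes was -0.06, beside -0.03 over all tested genes.

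Irf2bp2 was at 1.58 and 1.62 TPM in LPS and at 9.71 and 9.30 TPM in Met + LPS. The libraries were well separated, the log2FC was 2.02 ± 0.06 (SE; limma adjusted p = 6.1e-06), and voom on the recovered reads gave 2.56. By the size of the increase Irf2bp2 ranked 31 among the tested genes. The Met + LPS level was still 13.9% of the untreated level. Of the decrease after LPS 57.5% was left on the log2(TPM + 1) scale, which compresses the lowest level, and voom gave -5.39 for LPS and -2.83 for Met + LPS against untreated. Irf2bpl was at 21.5 and 20.7 TPM in LPS and at 24.3 and 27.3 TPM in Met + LPS, a log2FC of 0.27 (limma adjusted p = 0.0113). Irf2bp1, at 12.6 and 13.1 TPM in LPS, was at 10.8 and 10.5 TPM in Met + LPS, a log2FC of -0.25 (limma adjusted p = 0.0076). The 3 corepressor genes therefore had values of different sign, and for Irf2bp1 and Irf2bpl the side of the p-value threshold depended on the scaling, with adjusted p-values of 0.01003 and 0.0089 in limma after median-ratio scaling.

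Irf8 fell from 211 and 261 TPM to 134 and 123 TPM. No library of the groups overlapped, and the log2FC was -0.87 (95% interval -1.10 to -0.64, limma adjusted p = 5.7e-04). On leaving out single libraries it ranged from -1.02 to -0.72 and stayed past the cut-off of 0.7. On the log2(TPM + 1) scale of the deposited TPM 32.3% of the Irf8 increase after LPS was left in Met + LPS. This share depends on the scaling. After median-ratio scaling the log2FC of Irf8 against untreated was 1.80 in LPS and 0.95 in Met + LPS. Irf1 kept most of its rise, with 898 and 882 TPM in Met + LPS, a log2FC of -0.26 against LPS (95% interval -0.35 to -0.17, limma adjusted p = 0.0019). For Irf1 too the side of the p-value threshold depended on the fit, with a limma adjusted p of 0.0138 without the variance trend. Irf2 was at 22.0 and 20.6 TPM in Met + LPS, a log2FC of -0.38 against LPS (limma adjusted p = 0.0012). The ratio of Irf1 to Irf2 was 40.9 and 42.7 in the Met + LPS libraries.

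For Irf5 and Irf9 the LPS and Met + LPS libraries overlapped. Irf5 was at 475 and 496 TPM in Met + LPS, with a log2FC of -0.06 against LPS (95% interval -0.15 to 0.04, limma adjusted p = 0.276). Irf9 was at 66.4 and 69.7 TPM, with a log2FC of -0.04 (95% interval -0.14 to 0.06, limma adjusted p = 0.475). Irf4 was at 4.34 and 3.36 TPM, both above the LPS libraries, with a log2FC of 0.40 (95% interval 0.12 to 0.68) that did not pass at an adjusted p of 0.0288 in limma. On the recovered reads the difference of Irf4 was 0.51 with an adjusted p of 0.0068 in limma voom.

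Set against untreated BMDMs, at the cut-offs of LPS vs. untreated, Met + LPS left Irf1 and Irf2bp2 called (2 of 9, background 5.35%; higher 3.18%, lower 2.16%), with log2FC values of 4.55 and -2.72 (adjusted p = 2.1e-09 and 9.6e-08 in limma). By the p-value alone 7 of the 9 differed (background 75.1%), 4 higher (background 16.3%) and 3 lower (background 58.8%), and 7 had libraries that did not overlap (background 90.7%). Irf8 remained above its untreated level by 0.41 on the log2 scale (limma adjusted p = 0.0058), and by 0.36 to 0.47 on leaving out single libraries. That p-value missed 0.01 in limma without the filter (0.0276) or the variance trend (0.0190). Median-ratio scaling gave 0.95 for Irf8 (limma adjusted p = 1.6e-04), and voom on the recovered reads gave 0.43 (limma voom adjusted p = 8.6e-06). Irf2 differed from untreated by -0.05 (95% interval -0.17 to 0.07, limma adjusted p = 0.384) in TPM as deposited but by 0.47 (limma adjusted p = 2.0e-04) after median-ratio scaling. The value of Irf2bpl was -0.62 as deposited (limma adjusted p = 9.6e-05) and -0.09 after the scaling (limma adjusted p = 0.217), and that of Irf2bp1 was -1.72 and -1.20. Irf4 had 0.11 as deposited (limma adjusted p = 0.397) and 0.53 after the scaling (limma adjusted p = 0.0063). Irf5 and Irf9 were above untreated by 0.47 and 0.54 as deposited (adjusted p = 3.5e-05 and 2.7e-05 in limma). After the scaling they were above it by 1.01 and 1.07.

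**Figure D3:**
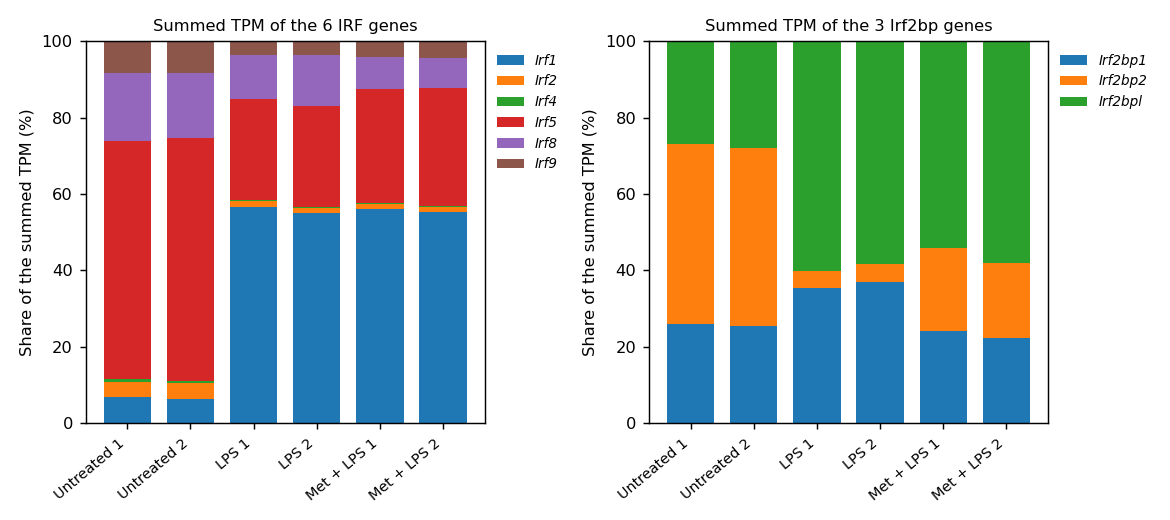
Share of each gene in the summed TPM of the 6 IRF genes and of the 3 Irf2bp genes, in percent, with 1 bar per library. Irf5 holds 62.4% and 63.6% of the IRF sum in the untreated libraries and Irf1 holds 55.0% to 56.7% in the others, and the share of Irf2bp2 in the Irf2bp sum is at most 4.56% in LPS and 19.8% and 21.7% in Met + LPS.

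TPM are per gene length, so the levels of the members can be added. The sum over the 6 IRF genes was 551 and 558 TPM in untreated BMDMs, 1858 and 1952 TPM in LPS and 1599 and 1594 TPM in Met + LPS. Untreated BMDMs had Irf5 as the main IRF transcript of these 6, with 62.4% and 63.6% of the sum, and Irf1 with 6.93% and 6.44%. After LPS, Irf1 made up 56.7% and 55.0% and Irf5 26.6% and 26.4%, and in Met + LPS the shares of Irf1 were much the same at 56.1% and 55.3%. The sum over the 3 Irf2bp genes was 147 and 144 TPM untreated, 35.6 and 35.5 TPM in LPS and 44.8 and 47.1 TPM in Met + LPS. Irf2bp2 held 47.2% and 46.7% of it untreated, 4.43% and 4.56% in LPS and 21.7% and 19.8% in Met + LPS, while Irf2bpl was the most abundant of the 3 in both stimulated groups. Relative to Irf2bp1, Irf2bp2 went from a ratio of 1.82 and 1.84 to 0.125 and 0.123 after LPS and stood at 0.900 and 0.886 in Met + LPS. The ratio of Irf8 to Irf4, which both pair with PU.1, was 28.2 and 27.2 untreated, 80.5 and 97.1 in LPS and 30.7 and 36.6 in Met + LPS.

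The genes whose levels over the 6 libraries lay nearest to those of the called members, by Euclidean distance on the centred log2(TPM + 1) scale among 10888 other protein-coding genes, were sought as well. For Irf1 these were Nfkbia (distance 0.109), Gbp7 (0.161) and Ifit3 (0.232). Nfkbia, for example, was at 99.4, 2699 and 2381 TPM in untreated, LPS and Met + LPS, as group means. For Irf8 they were Il2ra (0.194), Kremen1 (0.206) and Zfp697 (0.249), of which Kremen1 was at 16.1, 38.4 and 20.3 TPM in the same order. Il2ra was at only 0.0352, 1.52 and 0.297 TPM, so that its nearness rests on the pseudocount of 1 and its ratios between groups were larger than those of Irf8. Irf2bp2 had no neighbour as close, and Foxo3 (0.410), Zfp36l2 (0.612) and Cxcr4 (0.613) came nearest. Foxo3 was at 68.9, 2.42 and 10.5 TPM, against 68.3, 1.598 and 9.51 TPM for Irf2bp2.

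The gene models differ between the families. Irf1 lies on chromosome 11 (53770014 to 53778374), Irf4 on chromosome 13 (30749226 to 30766976), Irf5 on chromosome 6 (29526625 to 29541871) and Irf9 on chromosome 14 (55603571 to 55610030), in GRCm38 coordinates of the deposited table. Chromosome 8 carries Irf2 (46739732 to 46847458), Irf8 (120736358 to 120756694) and, on the minus strand, Irf2bp2 (126588296 to 126593986). Irf2bp1 is on chromosome 7 (19004044 to 19006777) and Irf2bpl on the minus strand of chromosome 12 (86880701 to 86884798). The principal transcripts of the IRF genes have 9 or 10 exons in GENCODE, whereas those of Irf2bp1 and Irf2bpl have 1 exon, like 2.2% of the tested protein-coding genes, and that of Irf2bp2 has 2. Between 93.0% (Irf2bpl) and 100% of the 31-mers of each member are found in no other gene. Exons overlap those of another gene on 20.5% of the bases of Irf2bp2 (Gm26759, opposite strand), 14.1% of Irf5 (Tnpo3, opposite strand), 3.4% of Irf1 (Gm17334, opposite strand) and 2.28% of Irf9 (Rnf31, same strand). Strand use in the counting is not stated, so reads on the bases shared with an opposite strand cannot be assigned with certainty. Reads on the bases that Irf9 shares with Rnf31 cannot be told apart by strand. Gm26759 was at most at 0.223 TPM in any library. Gm17334 went from a mean of 0.376 TPM untreated to 14.8 in LPS and 18.2 in Met + LPS, Rnf31 from 27.9 to 92.7 and 63.1 TPM, and Tnpo3 from 22.1 to 24.1 and 22.4 TPM. The part of shared reads in the values of Irf1 and Irf9 was not tested.

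Genes around the IRF factors were followed through lists written with earlier results known, and their counts and medians are descriptions to be read against all tested genes. Over the 12755 genes, LPS vs. untreated gave 3.72% called higher and 2.37% lower, 16.2% higher and 60.1% lower at an adjusted p-value under 0.01, and a median of -0.48. For Met + LPS vs. LPS the same shares were 4.19% and 4.09%, then 14.5% and 18%, with a median of -0.03. Of the other IRF genes, Irf7, the interferon-induced master factor of interferon-alpha genes, rose from 32.0 ± 1.39 to 183 ± 22.0 TPM (SD, n = 2 each) after LPS and was at 118 ± 3.10 TPM in Met + LPS. Its log2FC values were 2.47 after LPS (limma adjusted p = 5.7e-07) and -0.62 between Met + LPS and LPS (limma adjusted p = 0.0011), the latter short of the cut-off of 0.7. Irf3, the constitutive factor that TBK1 phosphorylates, had mean levels of 37.5, 29.4 and 23.8 TPM in untreated, LPS and Met + LPS. Unlike the IRF members that passed, Irf3 was lower after LPS, with a log2FC of -0.34 (limma adjusted p = 0.0034). The median over all tested genes was -0.48. Between Met + LPS and LPS the log2FC of Irf3 was -0.30 (limma adjusted p = 0.0136).

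Among 11 tested partners of IRF factors, 3 were called higher and 1 lower after LPS, with a list median of 0.38 beside -0.48 over all genes. Batf2 and Batf, AP-1 factors that pair with Irf4 and Irf8 on composite sites, had log2FC values of 3.46 and 3.14. Junb had 2.56, and Vgll4, a cofactor known to bind Irf2bp2, had -2.80. In Met + LPS against LPS, Batf2 (-1.09), Batf3 (-0.84) and Nfatc2 (-0.81) were called lower, and the median was -0.34. At an adjusted p-value under 0.01, 9 of the 11 were lower (background 18%) and 1 was higher (background 14.5%). Stat2, a partner of Irf9 named here after its values were seen, had mean levels of 57.1, 195 and 156 TPM in untreated, LPS and Met + LPS.

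Of 18 genes that ISGF3 is known to activate, 15 were called higher after LPS, with a median log2FC of 4.67 (background 3.72% called higher, median -0.48). The largest were those of Rsad2 (7.42), Mx1 (7.35), Ifit1 (6.87) and Mx2 (6.75), which encode antiviral proteins. Between Met + LPS and LPS, Usp18, the deconjugase of Isg15, was called, with a log2FC of -0.78. At an adjusted p-value under 0.01, 8 of the 18 were lower (background 18%) and 2 higher (background 14.5%), and the median was -0.34 beside -0.03 over all genes.

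All 15 tested genes of the Irf1 target list passed an adjusted p-value under 0.01 after LPS in limma (background 76.3%), all of them higher (background 16.2%), and 10 were called higher (background 3.72%), with a median of 5.73 beside -0.48 over all genes. Cxcl10 (9.53), Il12b (8.55), Gbp5 (8.46) and Il27 (8.12), which encode a chemokine, cytokine subunits and a GTPase of host defence, led the list. In Met + LPS, Nos2 (-1.40), Cxcl9 (-1.30) and Il15 (-0.85) were called lower than in LPS, 8 of 15 were lower at an adjusted p-value under 0.01 (background 18%), and the median was -0.38 beside -0.03. For comparison, Irf1 itself changed by -0.26.

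Of the 10 genes on the list of PU.1-Irf8 targets, 1 was called higher after LPS (Il12b, also on the Irf1 list), 4 were higher (background 16.2%) and 5 lower (background 60.1%) at an adjusted p-value under 0.01, and the median was -0.14 beside -0.48 over all genes. In Met + LPS against LPS, Klf4 (1.66) was called higher and Fcgr1 (-1.14) lower, 4 genes were lower (background 18%) and 2 higher (background 14.5%) at an adjusted p-value under 0.01, and the median was -0.16 beside -0.03.

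Of 8 tested genes of the Irf4 axis of alternative activation, 4 were called higher after LPS, the chemokines Ccl22 (7.59), Ccl17 (5.23) and Ccl24 (3.63) and the histone demethylase Kdm6b, and the list median was 1.77 beside -0.48 over all genes. The list was mixed at a limma adjusted p-value under 0.01, with 5 of the 8 higher (background 16.2%) and 2 lower (background 60.1%). Mean levels of Kdm6b were 1.59 ± 0.108, 19.7 ± 0.629 and 39.4 ± 3.53 TPM in untreated, LPS and Met + LPS (SD, n = 2 each), and the log2FC of the latter against LPS was 0.96. It was called higher together with Klf4 (1.66), which is also on the PU.1-Irf8 list, and Ccl24 (-2.18) was called lower. By the limma adjusted p-value under 0.01 alone, 2 of the 8 were higher (background 14.5%) and 1 lower (background 18%), with a list median of -0.04 beside -0.03. Arg1 and Retnla, classic markers of that state, were below the filter, and Retnla was listed at 0. Other genes of the list were present. Mrc1 had mean levels of 234, 217 and 194 TPM in untreated, LPS and Met + LPS, and Chil3 had 0.539, 1.24 and 1.73 TPM.

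Of 6 genes linked to Irf2bp2, 2 were called lower after LPS, Vgll4 (-2.80) and Vegfa (-2.75), whose angiogenic factor Irf2bp2 is known to coactivate in muscle. Vegfa was at 40.7 ± 3.98, 5.18 ± 0.133 and 18.8 ± 1.23 TPM in untreated, LPS and Met + LPS (SD, n = 2 each), a log2FC of 1.68 between Met + LPS and LPS. Nfatc2 was called lower in Met + LPS (-0.81). At a limma adjusted p-value under 0.01, 2 of the 6 were higher (background 16.2%) and 3 lower (background 60.1%) after LPS. Between Met + LPS and LPS only Vegfa was higher at that threshold (1 of 6, background 14.5%), and 4 were lower (background 18%). The medians were -0.19 after LPS, beside -0.48 over all genes, and -0.42 between Met + LPS and LPS, beside -0.03. Of the 6 genes 4 are also on the list of partners, so that these lists are not separate evidence.

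**Figure D4:**
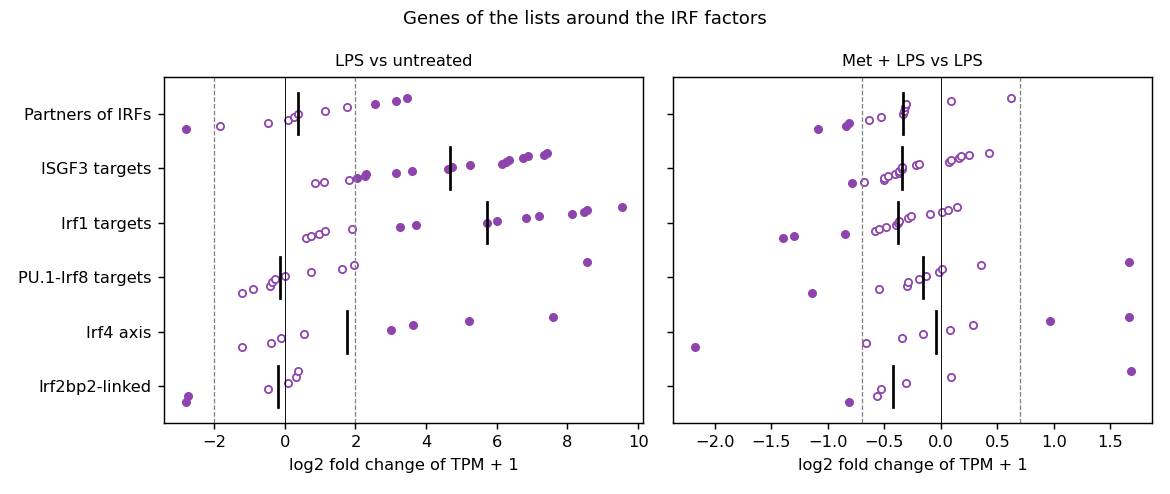
Log2FC values of the tested genes of the 6 lists on the log2(TPM + 1) scale, with LPS vs. untreated on the left and Met + LPS vs. LPS on the right; dots are genes, filled dots passed both cut-offs, black bars are list medians and dashed lines mark the fold cut-off. ISGF3 and Irf1 targets lie on the right after LPS, with medians of 4.67 and 5.73, and both have medians below 0 in the second comparison, -0.34 and -0.38.

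In bulk RNA, fewer cells of a type and less RNA per cell cannot be told apart. The 8 macrophage markers summed to between 44621 and 46599 TPM in untreated BMDMs, 37412 to 37903 in LPS and 30877 to 30948 in Met + LPS, and none of the 8 was at 0. Most of this sum was Lyz2, with means of 34912, 26835 and 21292 TPM in the same order. At a limma adjusted p-value under 0.01, 5 of the 8 were lower (background 60.1%) and 2 higher (background 16.2%) after LPS. Against LPS, 6 were lower (background 18%) and 0 higher (background 14.5%) in Met + LPS. The median log2FC of the 8 was -0.28 after LPS, less negative than the -0.48 over all tested genes. Between Met + LPS and LPS it was -0.34, beside -0.03 over all tested genes. Irf4 and Irf8 are also known in B cells and dendritic cells. All 4 B cell markers were below 1 TPM in every library, with sums of at most 0.515 TPM, and Pax5 was at 0 in both untreated libraries. The 5 dendritic cell markers summed to 0.856 to 0.973 TPM untreated, 2.41 to 2.48 in LPS and 2.19 to 2.88 in Met + LPS, with no marker at 0 in both libraries of a group. The part of these sums in the values of Irf8 was not tested. Markers of T cells, erythroid cells, fibroblasts and mast cells or basophils (4 each) summed to at most 1.56 TPM in any library. Those of neutrophils and their precursors (5) summed to 21.9 to 26.9 TPM untreated, 13.5 to 19.1 in LPS and 25.7 to 28.9 in Met + LPS, so that the LPS libraries were below all others, and the part of this in the values of the members was not tested.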

How the data were processed

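RNA-seq of poly-A RNA from 6 BMDM libraries was analysed in 3 groups of 2. The authors aligned single-end reads to GRCm38 with STAR 2.6.1d, counted them with featureCounts of Subread 1.6.3 and deposited TPM; how counts became TPM is not stated. From these TPM, log2(TPM + 1) was fitted for the 12755 genes that reached 1 TPM in 2 or more libraries with limma 3.58.1 (R 4.3.3, lmFit, eBayes with trend, all 6 libraries, no covariate, 3 residual degrees of freedom), with Benjamini-Hochberg adjustment over all tested genes. The cut-offs are those of the study, and that of LPS was also used for Met + LPS vs. untreated. The study applied them to counts tested with DESeq2, so the genes called here are not the same set as in the study. With 2 libraries against 2, a two-sided exact permutation test cannot go below p = 0.333. Exon lengths and gene models came from GENCODE M21 on the same build, a later release than the one the authors name (54495 genes matched), and TPM times length was a whole multiple of a library step, within 0.05 reads, for 96.4% to 96.6% of values above 0. Recovered reads served for limma voom (12750 genes). Fits were also run on simulated reads with no shift of the median set between groups, so that run says nothing about the shift seen here. Tables were made with Python 3.11.15, pandas 2.3.3 and numpy 2.4.6, and promoters came from RefSeq.

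The members and lists were chosen with earlier results of these data known. All 9 members are named, and 3 genes most alike per called member. Of each list at most 4 called genes with the largest change are named. Irf3, Stat2, Arg1, Retnla, Mrc1 and Chil3 were named outside this rule after their values were seen. As alternatives, the pseudocount was set to 0.1, the filter was dropped or raised to 5 TPM, and fits were run with median-ratio scaling, the compared groups only, a replicate block, no variance trend, voom with and without scaling, other cut-offs and leaving out each library.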

Additional observations from a re-analysis of the deposited data

How the results depend on the processing

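The called members, 2 in each comparison, were the same number under all alternatives but a fold cut-off of 1 on the log2 scale, which gave 4 for LPS vs. untreated, 1 for Met + LPS vs. LPS and 3 for Met + LPS vs. untreated. Of 348 values of single members under alternatives, 343 kept their direction and their side of the threshold on fold and p-value together, and 5 reversed. Irf4 in LPS vs. untreated was 0.10 with median-ratio scaling and 0.14 with voom and that scaling. Irf2 in Met + LPS vs. untreated was 0.47 and 0.49 with the same alternatives (adjusted p = 2.0e-04 in limma and 8.7e-08 in limma voom). Irf4 in Met + LPS vs. untreated was -0.033 without Met + LPS replicate 1 and ranged to 0.26 over the left-out libraries. Beside the shift that the scaling gives all genes, the cause was not tested.

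The members at an adjusted p-value under 0.01 in Met + LPS vs. LPS, 5 in limma, were 3 without a variance trend, 6 with a minimum of 5 TPM (2 higher, 4 lower), 6 with voom with or without scaling (3 higher, 3 lower) and 2 to 4 when each library was left out; in Met + LPS vs. untreated the 7 were 6 without the filter, without the trend and without any 1 library, and 8 with median-ratio scaling. These counts were added after the data were seen. Irf4, at most at 4.34 TPM, was not among the genes fitted with a minimum of 5 TPM. It therefore has no value at that setting among the 348 above. The genes called in LPS vs. untreated, 776, were 1512 with a pseudocount of 0.1, 1595 with voom, 1378 with voom and median-ratio scaling and 3556 with a fold cut-off of 1. In Met + LPS vs. untreated the 682 called genes became 1457, 1562, 1299 and 3714 in the same order, and in Met + LPS vs. LPS the 1056 became 455 with a fold cut-off of 1. Median-ratio scaling moved the split of called genes from 474 higher and 302 lower to 664 and 129 in LPS vs. untreated, and from 406 and 276 to 571 and 99 in Met + LPS vs. untreated. When each library was left out, the called genes ranged from 769 to 806, from 925 to 994 and from 676 to 696 in LPS vs. untreated, Met + LPS vs. LPS and Met + LPS vs. untreated.

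Samples with the same replicate number did not deviate together (correlations of -0.0037 to 0.028 over 12755 genes), so the number was not taken as a pairing. With a replicate block the called genes were 777 in LPS vs. untreated, 1044 in Met + LPS vs. LPS and 682 in Met + LPS vs. untreated, 2 members were called in each, and 8, 4 and 7 members had an adjusted p-value under 0.01. Groups of 2 libraries leave 3 residual degrees of freedom, and the reads behind Irf4 (96 to 161) and Irf2bp2 in LPS (60 and 61) limit their precision.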

Other observations

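AU-rich ATTTA pentamers in the 3′ untranslated region, letters known from short-lived cytokine mRNAs, were counted in the principal transcript of each member. Irf1 and Irf4 held 3 each, Irf5, Irf8 and Irf2bp2 held 2 each, Irf2, Irf9 and Irf2bpl held 1 each and Irf2bp1 held 0. The untranslated region of Irf2bp2 is long, at 2817 bases beside a median of 999 over the tested protein-coding genes, and 48% of these genes have at least as many ATTTA as Irf2bp2. Per kilobase Irf2bp2 held 0.71, beside a median of 1.31. These are counts of letters, and mRNA stability was not measured.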
